A study of Mus musculus with 42 samples.

Results

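Dipeptidyl peptidases and their relatives are serine peptidases that cut peptides next to proline, and BXCL701 was made to block enzymes of this family. The 6 genes described here, Dpp4, Fap, Dpp8, Dpp9, Dpp7 and Prep, were taken by symbol from the 47729 genes of the deposited table, and all 6 passed the filter on low values that 16613 genes passed. BXCL701, also called talabostat, is a small boronic acid inhibitor of DPP4, fibroblast activation protein (FAP), DPP8 and DPP9. Dpp7 and Prep encode related peptidases. RNA was measured, and enzyme activity was not.

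DPP4 is a surface enzyme that removes an N-terminal dipeptide from chemokines and gut hormones. FAP, its closest relative, sits on activated fibroblasts and also cuts within collagen-derived chains. DPP8 and DPP9 are cytosolic, and DPP9 binds the NLRP1 inflammasome sensor and holds it inactive. DPP7 works in vesicles and lysosomes, and prolyl oligopeptidase, encoded by Prep, cuts short peptides in the cytosol.

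Tumours were grown under the skin of C57BL/6 mice from Pan02, a mouse pancreatic adenocarcinoma line, and 1 tumour from each of 42 mice was sequenced as bulk RNA. Vehicle mice received PBS and were sampled at 0 h on days 1, 7 and 14. BXCL701 mice received 20 ug per mouse by daily oral gavage and were sampled on day 1 after 1, 8 or 16 h. On days 7 and 14 they were sampled at those hours and also at 0 h. Each of these 14 groups held 3 tumours, all groups carried the same tumour line and no introduced allele, and ages were not given. Vehicle tumours were compared only at 0 h, so at 1, 8 and 16 h treatment and hour cannot be told apart. In whole tumours, fewer cells of a type and less RNA per cell also cannot be told apart.

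The codons around the catalytic serine are shown because this is the site the inhibitor occupies. Their bases are more alike among the 4 named targets than between these and Dpp7 or Prep. How strongly each enzyme is blocked cannot be read from them. The codons were read from the longest coding transcript of each gene in GENCODE M21 (GRCm38), as the only match in its reading frame to glycine, any residue, serine, any residue, glycine, followed by another glycine. Capitals mark the 5 codons from the first glycine of this motif, with the serine codon in the middle, and 6 codons stand on each side.
Dpp4: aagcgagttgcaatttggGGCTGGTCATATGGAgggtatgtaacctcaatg
Fap: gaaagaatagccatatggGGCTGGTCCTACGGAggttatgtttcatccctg
Dpp8: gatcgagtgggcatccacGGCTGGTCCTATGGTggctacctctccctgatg
Dpp9: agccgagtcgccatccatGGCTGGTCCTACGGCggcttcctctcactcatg
Dpp7: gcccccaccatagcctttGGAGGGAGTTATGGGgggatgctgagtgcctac
Prep: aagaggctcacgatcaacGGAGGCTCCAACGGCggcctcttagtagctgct

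The 15-base motifs of the 4 named targets shared 12 to 14 bases in every pair. With these, the motif of Dpp7 shared 8 or 9 bases and that of Prep 8 to 11. Over the 51 bases, Dpp8 and Dpp9 shared 40 and Dpp4 and Fap shared 36, more than any pair across these couples (30 to 32). Dpp7 shared 16 to 19 of the 51 bases with the other members and Prep shared 17 to 27. Dpp7 also used another serine codon, AGT at codon 172 of 506. The serine codon was number 624 of 760 in Dpp4, 624 of 761 in Fap, 749 of 892 in Dpp8, 729 of 862 in Dpp9 and 554 of 710 in Prep. The motif lay within exon 18 of 21 in Dpp8 (chr9:65075826-65075840, plus strand) and Dpp9 (chr17:56190038-56190052, minus strand), and within exon 13 of 15 in Prep (chr10:45153159-45153173, plus strand). In the others it ran over an exon junction, from exon 21 of 26 in Dpp4 (chr2:62347909-62348506, minus strand) and Fap (chr2:62504597-62512391, minus strand) and from exon 4 of 13 in Dpp7 (chr2:25355022-25355565, minus strand), so these spans include an intron.

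Dpp4 (ENSMUSG00000035000, chr2:62330073-62412231) and Fap (ENSMUSG00000000392, chr2:62500943-62574075) are neighbours on the minus strand, 88.7 kb apart. The one protein-coding gene between them is Gcg, which encodes proglucagon and so the DPP4 substrate GLP-1, and it did not exceed a deposited value of 0.985 in any of the 42 tumours. Dpp7 (ENSMUSG00000026958, chr2:25352276-25356359, minus strand) is on the same chromosome, Dpp8 (ENSMUSG00000032393) is at chr9:65032414-65082651 on the plus strand, Dpp9 (ENSMUSG00000001229) at chr17:56186807-56218905 on the minus strand and Prep (ENSMUSG00000019849) at chr10:45067203-45167198 on the plus strand. An antisense gene, Gm13561, overlaps Dpp4 and had a highest value of 1.41. The sources used here do not say whether reads were counted by strand.

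The cytosolic and vesicular enzymes were the abundant members, and the surface pair was low. Per length, the median level over the 42 tumours was 29.1 FPKM for Dpp9 (range 16.9 to 35.3), 28.7 for Prep (18.4 to 38.8) and 22.0 for Dpp7 (16.0 to 32.8). Dpp8 had a median of 12.9 FPKM (4.50 to 24.0), Fap 3.50 (0.393 to 9.02) and Dpp4 0.888 (0.328 to 3.26). Dpp9 was above Dpp8 in 42 of 42 tumours with a median ratio of 2.13, and each of Dpp9, Prep, Dpp7 and Dpp8 was above Fap and Dpp4 in 42 of 42. Dpp9 was above Prep in 24 of 42 tumours, so these neighbours in the order did not separate, and Fap was above Dpp4 in 41 of 42. Prep and Dpp7 changed places when the deposited gene values were divided by exon length instead, with Prep above Dpp7 in 4 of 42 tumours against 35 of 42 by FPKM.

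**Figure D1:**
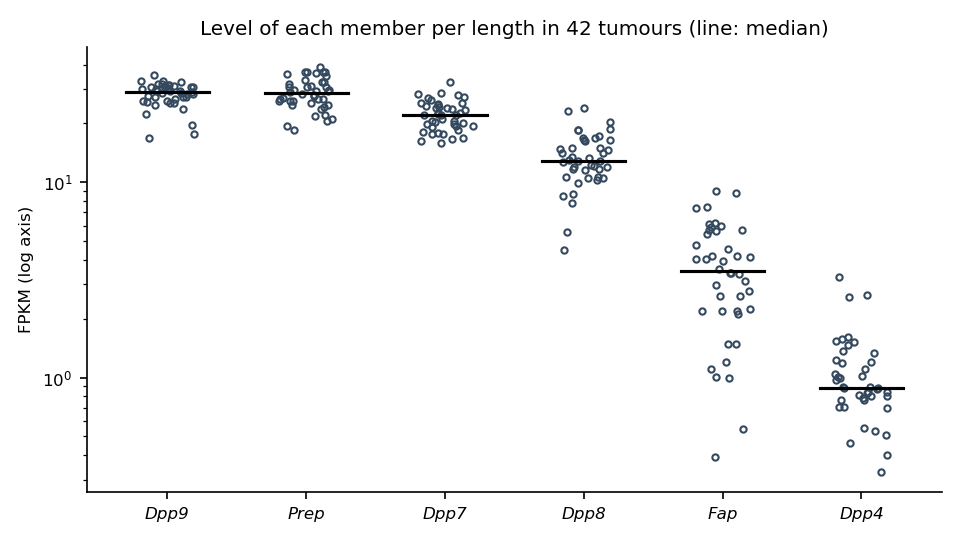
Level of each member in FPKM on a log axis, 1 point per tumour (42 tumours) with a line at the median. Dpp9, Prep and Dpp7 lie between 16.0 and 38.8 FPKM, and Fap spreads over a 23.0-fold range, the widest of the 6.

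The members also differed in how much they varied from tumour to tumour. The highest tumour was 23.0 times the lowest for Fap, 9.97 times for Dpp4 and 5.33 times for Dpp8, in FPKM, against 2.05 to 2.11 times for Dpp7, Dpp9 and Prep. On the log2(value + 1) scale of the deposited values, the SD over all tumours put Fap at percentile 82.7 of the 16613 genes, Dpp4 at 68.8, Dpp8 at 49.5, Dpp7 at 26.1, Prep at 20.1 and Dpp9 at 6.8. Between 44.6% (Prep) and 71.4% (Fap) of the total sum of squares lay between tumours of the same group. This share was not corrected for fitting 14 group means, so part of the rest arises without any group difference. In a moderated F test over the 14 groups (limma, Benjamini-Hochberg over all genes tested), 0 of 6 members passed 0.05, with adjusted p from 0.178 (Prep) to 0.664 (Fap), where 1.02% of all genes passed.

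**Figure D2:**
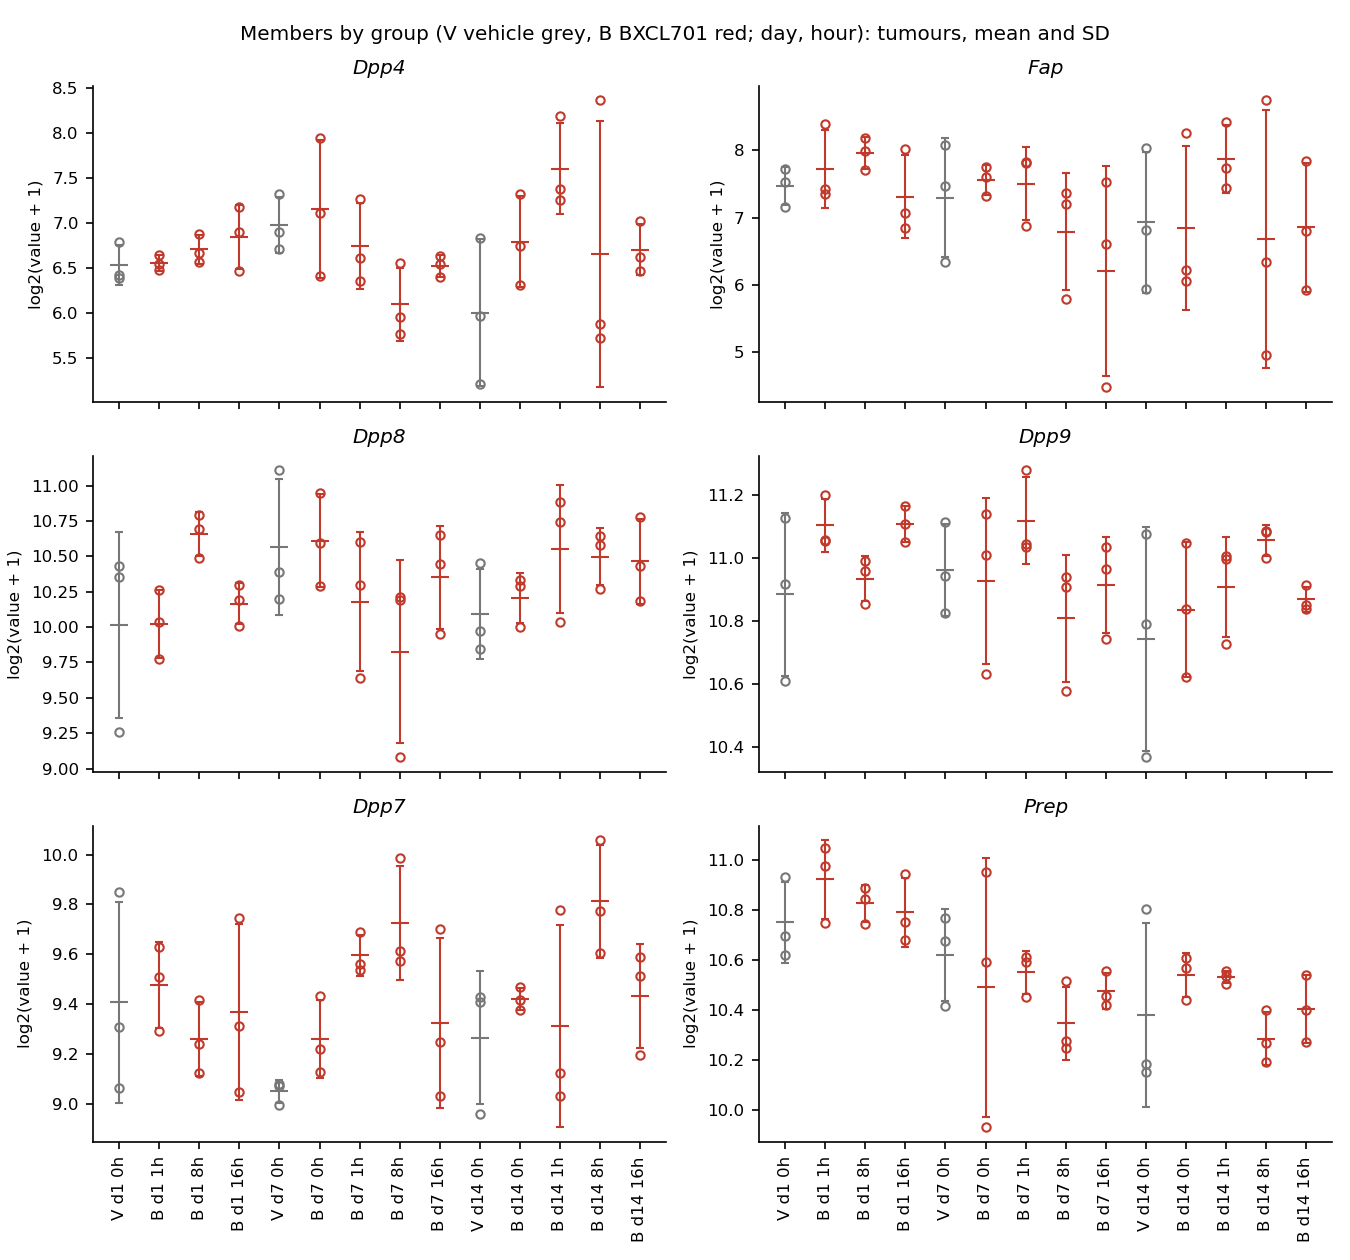
Deposited values of the 6 members as log2(value + 1) in each of the 14 groups, with the 3 tumours as open circles and the mean ± SD as a bar, vehicle in grey and BXCL701 in red. Spread within groups is widest for Fap, up to an SD of 1.91 at 8 h on day 14, and groups next to each other in level overlap in 13 of 13 pairs for every member except Dpp7 (12 of 13).

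Deposited values summed to between 19133149 and 26633378 per tumour. Markers of neighbouring tissue differed widely between tumours: summed skeletal muscle markers ran from 149 to 312124 and adipocyte markers from 1846 to 57423. Of the carcinoma epithelium markers 8 of 8 passed the filter, with median levels of 592 FPKM for Krt8, 447 for Krt18 and 41.6 for Krt19. The rest of this list was lower, at 8.18 FPKM for Sox9, 7.98 for Cdh1, 7.41 for Krt7, 1.45 for Muc1 and 0.996 for Epcam. Of the day 14 vehicle tumours, replicates 1 and 2 ranked 39 to 42 of 42, counted from the highest, for the T cell, NK cell, B cell, dendritic cell and macrophage sums. For neutrophil markers they ranked 35 and 42. Replicate 3 ranked 1 for keratinocyte markers, 34 for NK cell and 31 for neutrophil markers, and 2 to 26 for the other immune lists. Every day 14 difference from vehicle rests on these 3 tumours.

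The main comparison asked whether dosing changed the RNA of the 6 members. No member passed the threshold on any day. On day 1, 0 of 6 passed (0 at an unadjusted p under 0.05), where 0% of all genes tested were called. On day 7, 0 of 6 passed (1, Dpp7, at an unadjusted p under 0.05), where 0.00602% of all genes were called. On day 14, 0 of 6 passed (1, Dpp4, unadjusted), where 3.29% of all genes were called. At 0 h of days 7 and 14, the only hour with vehicle tumours, 0 of 6 passed (0 unadjusted), where 0.512% were called. Such an unadjusted p was reached by 2.63%, 9.87% and 17.8% of all genes on days 1, 7 and 14, and by 10.8% at 0 h. Values of BXCL701 and vehicle tumours overlapped for every member on every day.

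The members' median log2 difference was 0.17 on day 1, -0.22 on day 7 and 0.20 on day 14, against medians of 0.03, -0.03 and -0.01 over all genes tested. On day 14 all 6 estimates were above 0, as were 48.4% of all genes. The 3 days each have their own vehicle group, while the 0 h comparison shares its vehicle tumours with those of days 7 and 14. In the 11 single groups set against vehicle of their day, 0 of 66 tests passed. An unadjusted p under 0.05 was reached in 7, and this share was not computed over all genes for single groups. The lowest adjusted p (limma) was 0.0761 for Dpp7 at 8 h on day 7, where 0.301% of all genes were called. On day 14 the share of all genes called was 0.783% at 0 h, 0.789% at 1 h, 1.25% at 8 h and 0.0722% at 16 h, on day 1 at 16 h it was 0.012%, and in the other groups 0%. No difference between days in the BXCL701 effect passed for any member, where 0% of all genes were called in each of the 4 such comparisons. Among these, 1 member (Dpp4, day 14 minus day 7) had an unadjusted p under 0.05, as did 15.6% of all genes.

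**Figure D3:**
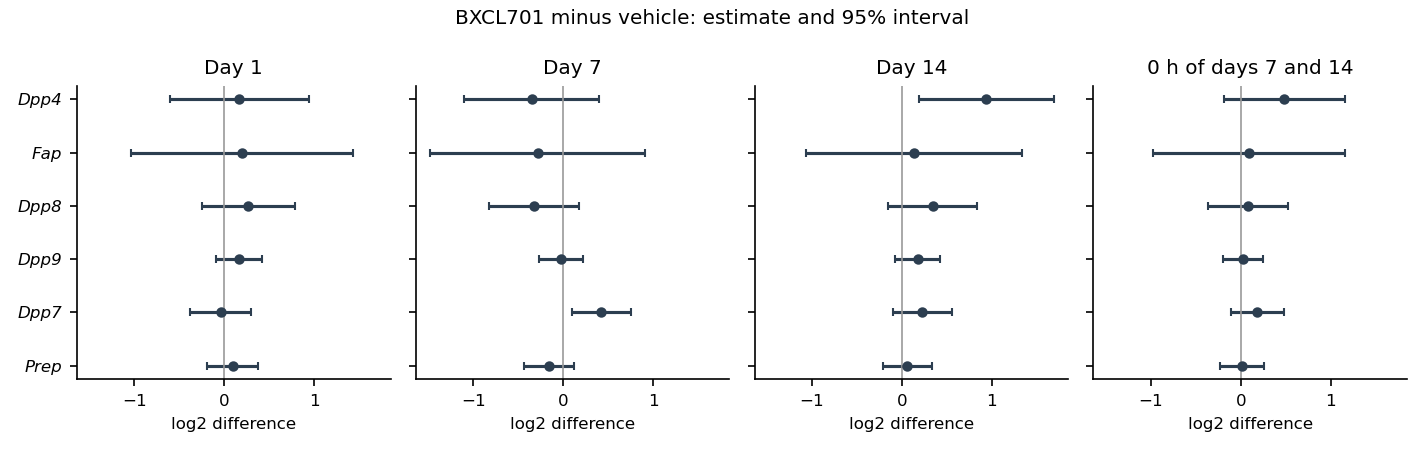
BXCL701 minus vehicle for each member as a log2 difference with its 95% interval from limma, on days 1, 7 and 14 and at 0 h of days 7 and 14. The intervals of Dpp7 on day 7 and Dpp4 on day 14 lie above 0, neither passes after adjustment over all genes, and Fap has the widest intervals.

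Among the surface enzymes, Dpp4 had its largest difference on day 14, and it did not pass. The vehicle values were 109, 85.0 and 82.7 on day 1, 118, 104 and 159 on day 7, and 35.8, 61.4 and 113 on day 14. The day 14 BXCL701 tumours held 107, 159 and 78.3 at 0 h, 291, 165 and 152 at 1 h, 51.8, 329 and 57.8 at 8 h, and 97.6, 87.6 and 129 at 16 h. Day 14 vehicle was the lowest of the 14 groups and day 14 BXCL701 at 1 h the highest, and these 2 groups did not overlap. Over the pooled hours the log2 difference was 0.94 ± 0.37 (SE; 95% interval 0.19 to 1.69; limma adjusted p = 0.154), a 1.92-fold ratio, with 3 tumours against 12.

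At 1 h alone the Dpp4 difference was 1.61 ± 0.47 (SE, limma adjusted p = 0.0939), where 0.789% of all genes were called. On day 7 the estimate was negative, -0.35 ± 0.37 (SE, limma adjusted p = 0.642), with vehicle values of 104 to 159 against 53.6 to 246. The difference between these effects, day 14 minus day 7, was 1.29 ± 0.52 (SE, limma adjusted p = 0.251). Without day 14 vehicle replicate 3, the highest of its group, the day 14 difference was 1.36 (adjusted p = 0.0307), and without replicate 1, the lowest, it was 0.54 (adjusted p = 0.596). More of all genes also passed on day 14 without replicate 3, as given below. The call and the size of the Dpp4 difference therefore turn on single vehicle tumours.

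Dpp4 was highest in tumours that also held much adipocyte RNA. The 3 tumours highest in Dpp4, day 14 at 8 h (329) and 1 h (291) and day 7 at 0 h (246), all treated, ranked 2, 1 and 3 of 42 for the summed adipocyte markers, at 32592, 57423 and 16840. The same tumours ranked 2, 1 and 29 for muscle, 3, 10 and 24 for endothelial and 16, 33 and 1 for dendritic cell markers. Over the 42 tumours the correlation of Dpp4 with the mean level of the 10 adipocyte markers was 0.65, and 0.60 for deviations from the group means. All 10 of these markers passed the filter, and none was at 0 in every tumour. On day 14 their sums ran from 2076 to 6235 in vehicle and from 2397 to 57423 under BXCL701. With adipocyte, muscle and keratinocyte levels as covariates the day 14 Dpp4 difference was 0.75. Correlations of Dpp4 with the endothelial, macrophage and NK cell lists were 0.57, 0.54 and 0.52, and with the T cell list 0.06, although T cells are a known site of DPP4 (CD26). Of single markers, Adipoq of the adipocyte list was at 0.60 and Cd68 of the macrophage list at 0.05. These points share libraries and scaling, and the part of adipose or other tissue in the Dpp4 values was not tested.

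Fap varied with the fibroblast markers of the tumour, and no difference between treatments passed. Its vehicle values were 209.96, 184 and 142 on day 1, 79.9, 176 and 271 on day 7, and 111, 60.7 and 260.4 on day 14. Under BXCL701 it ran from 114 to 336 on day 1 (median 209), from 21.3 to 226 on day 7 (median 162) and from 30.2 to 428 on day 14 (median 142). Vehicle and treated tumours overlapped over most of their ranges on each day.

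The log2 differences of Fap from vehicle were 0.19 ± 0.61 on day 1, -0.28 ± 0.59 on day 7 and 0.13 ± 0.59 on day 14 (SE, limma adjusted p 0.952, 0.822 and 0.949). The 95% intervals of days 7 and 14 reached from -1.48 to 0.91 and from -1.06 to 1.33, so a 2-fold change lies within both.

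The correlation of Fap with the mean of the 12 fibroblast markers was 0.89 over the 42 tumours and 0.92 within groups. All 12 markers passed the filter, none was at 0 in every tumour, and their sum ran from 77644 to 779180. The 2 tumours with the lowest sums, day 14 at 8 h replicate 1 (77644) and day 7 at 16 h replicate 1 (80275), were also the 2 lowest in Fap, at 30.2 and 21.3. Correlations were 0.82 with the skeletal muscle list and 0.81 with the endothelial list. Pdgfra, a growth factor receptor of fibroblasts and itself 1 of the 12 markers, ran the other way (-0.43), and Pi16, another of them, was at 0.42. Dpp4 and Fap correlated with each other at 0.51, and the tumours highest in Dpp4, day 14 at 8 h replicate 2 and at 1 h replicate 1, were also the 2 highest in Fap (428 and 342). In these, the fibroblast sums ranked only 16 and 22 of 42 (398435 and 229018) while muscle markers ranked 2 and 1, and their part in the Fap values was not tested.

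**Figure D4:**
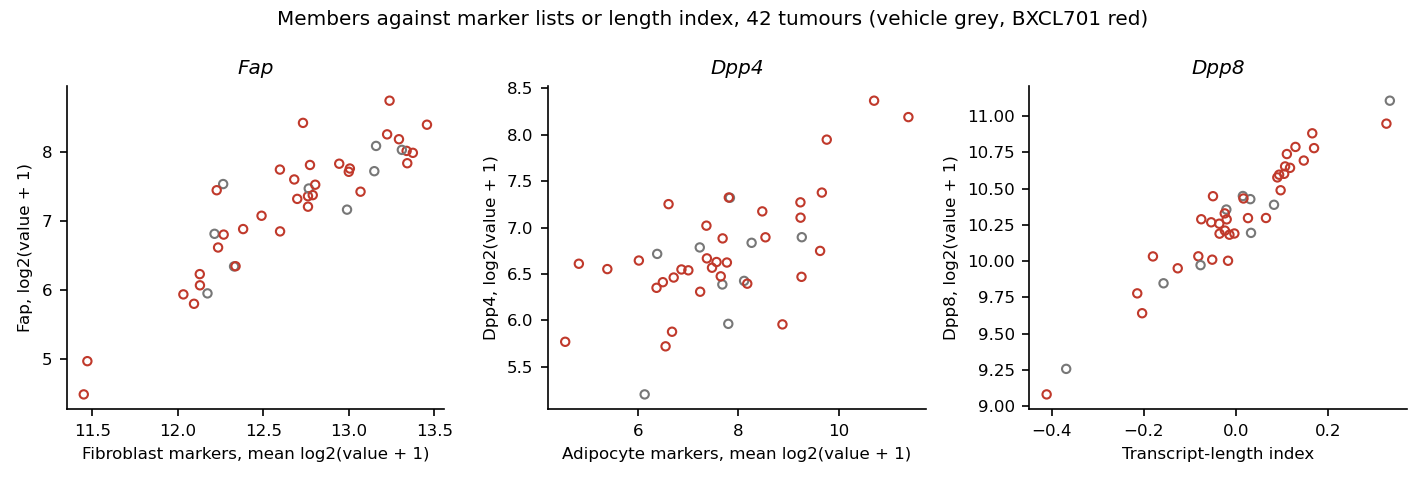
Fap against the mean level of 12 fibroblast markers, Dpp4 against 10 adipocyte markers and Dpp8 against the transcript-length index, each as log2(value + 1) on the vertical axis with 1 point per tumour (vehicle grey, BXCL701 red). Points rise together in each panel (correlations 0.89, 0.65 and 0.96 over 42 tumours), with vehicle and treated tumours along the same cloud.

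Of the cytosolic pair, Dpp8 moved with a property of the library. For each tumour a transcript-length index was computed as the slope of gene deviations on log2 exon length over 11491 genes, so that a high index marks a tumour in which long transcripts read high. Dpp8, with 13707 bases of exon the longest member, correlated with it at 0.96 over the 42 tumours and 0.96 within groups. The lowest index belonged to day 7 at 8 h replicate 3, which had the lowest Dpp8 value (540.0), and the highest to day 7 vehicle replicate 2, which had the highest (2206).

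Dpp8 vehicle values were 1376, 610.3 and 1309.7 on day 1, 1171, 2206 and 1339.8 on day 7, and 1397, 919.9 and 1003 on day 14. Treated tumours spanned 876 to 1768 on day 1, 540.0 to 1976 on day 7 and 1025 to 1887 on day 14, overlapping vehicle each time. The log2 differences were 0.27 ± 0.25, -0.32 ± 0.24 and 0.34 ± 0.24 (SE, limma adjusted p 0.906, 0.531 and 0.514). With the index as a covariate the day 14 difference was 0.07 ± 0.08 (SE). What sets the index, RNA quality included, was not tested.

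Dpp9, the NLRP1-binding member, was the steadiest of the 6. Its vehicle values were 2235, 1563 and 1935 on day 1, 2218, 1814 and 1969.9 on day 7, and 1770.0, 1321 and 2158 on day 14. Treated tumours held 1852 to 2355 on day 1 (median 2125), 1527 to 2485 on day 7 (median 2029) and 1575 to 2175 on day 14 (median 1987). The highest and lowest of the 14 groups differed 1.30-fold and still overlapped.

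Its log2 differences from vehicle were 0.16 ± 0.12, -0.02 ± 0.12 and 0.17 ± 0.12 on days 1, 7 and 14 (SE, limma adjusted p 0.906, 0.948 and 0.497). The widest bound of the 3 intervals was 0.42 on the log2 scale. For Dpp9, unlike Fap, the intervals hold no change as large as 2-fold.

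Dpp7, the lysosomal member, had its lowest group in day 7 vehicle. Those tumours held 541, 509.7 and 537, against 634, 922 and 534 on day 1 and 496, 688 and 679 on day 14. Day 7 BXCL701 tumours held 522 to 1015. The values overlapped only through the 16 h group (606, 831 and 522). At 0 h the treated tumours (559, 595 and 690.4) lay above vehicle, with a log2 difference of 0.21 ± 0.20 (SE) that did not pass. Over the pooled hours the log2 difference of 0.43 ± 0.16 (SE, 95% interval 0.10 to 0.76) had a limma adjusted p of 0.482.

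On days 7 and 14, though not on day 1, the mean of Dpp7 was highest at 8 h. Over days 7 and 14 the 8 h tumours held 782, 761 and 1015 and 1065, 779 and 874, and the 0 h BXCL701 tumours 559, 595 and 690.4 and 682, 664 and 707. These groups did not overlap, and the log2 difference of 0.43 ± 0.14 (SE) had a limma adjusted p of 0.362, where 0.132% of all genes were called. On day 1 the 8 h tumours held 557, 604 and 683, with a mean below those at 1 h (791, 727 and 625) and 16 h (858, 634 and 528), and the 3 groups overlapped. Vehicle tumours were not compared at 8 h. Dpp7 has the shortest exon length of the 6 (3337 bases) and ran against the transcript-length index (-0.60) and against Dpp8 (-0.61). The other members did not follow exon length in order. Prep (10933 bases) correlated with the index at -0.16, Dpp9 (7883) at 0.22, Dpp4 (6319) at 0.34 and Fap (5662) at 0.01. With the index as a covariate the day 14 Dpp7 difference from vehicle went from 0.23 ± 0.16 (SE, limma adjusted p = 0.507) to 0.35 ± 0.12 (adjusted p = 0.0422), and the day 7 difference from 0.43 to 0.22.

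Prep was the only member with a call among the 20 pooled comparisons (1 of 120 tests, 9 at an unadjusted p under 0.05), and the call was between days, not between treatments. Depending on the comparison, 2.29% to 18.4% of all genes had such an unadjusted p. On day 1 the treated tumours held 1718, 2014 and 2117 at 1 h, 1841, 1715 and 1898 at 8 h, and 1723, 1638 and 1973 at 16 h. On day 14 they held 1452, 1485 and 1504 at 1 h, 1349, 1231 and 1167 at 8 h, and 1349.8, 1235 and 1490.1 at 16 h. All 9 day 14 tumours, and the 3 at 0 h (1562, 1519 and 1388), lay below the lowest treated tumour of day 1.

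At matched hours Prep fell by 0.44 ± 0.10 (SE) on the log2 scale from day 1 to day 14 (95% interval -0.64 to -0.24, limma adjusted p = 0.0213), a ratio of 0.737. In this comparison 1.27% of all genes were called, 0.698% as lower. From day 1 to day 7 the difference was -0.39 ± 0.10 (SE, limma adjusted p = 0.0622), with 11 of 12 day 7 tumours below the lowest of day 1, where 0.12% were called. Both comparisons share the day 1 tumours. From day 7 to day 14 the difference was -0.03 ± 0.09 (SE, limma adjusted p = 0.980), where 0.012% were called.

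Prep was also estimated lower on day 14 in vehicle, without passing. Vehicle tumours held 1661, 1573 and 1957 on day 1, 1637, 1364 and 1745 on day 7, and 1136, 1160.2 and 1789.8 on day 14. Replicate 3 of day 14 stood with day 1 and the other pair well below. The log2 difference, day 14 minus day 1, was -0.37 ± 0.17 (SE, limma adjusted p = 0.381), where 0.0602% of all genes were called. Between the arms, the change from day 1 to day 14 differed by -0.04 ± 0.19 (SE, 95% interval -0.43 to 0.36). That contrast also counted the treated 0 h tumours of day 14, unlike the difference at matched hours above.

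The Prep call was near the threshold. It was lost with adipocyte, muscle and keratinocyte levels as covariates (-0.34, limma adjusted p = 0.165) and without day 1 16 h replicate 3 (-0.41, adjusted p = 0.0640) or day 14 16 h replicate 2 (-0.42, adjusted p = 0.0587). Prep correlated at 0.51 with carcinoma epithelium markers, at 0.46 with keratinocyte markers and at 0.46 with fibroblast markers (0.59, 0.45 and 0.25 within groups). Single genes of these lists did not all follow. Of the fibroblast list, Pdgfra ran the other way (-0.59, and -0.48 within groups) and Pi16 was at 0.23. Of the carcinoma epithelium list, Epcam was at 0.19 and Krt19 at 0.09. In the comparison of the Prep call, 12 of 12 keratinocyte, 9 of 12 fibroblast and 6 of 8 carcinoma epithelium markers had estimates below 0 (medians -1.98, -0.52 and -0.16). Of each list 0 passed (1, 6 and 3 at an unadjusted p under 0.05, limma), and 10 of 10 adipocyte markers were above 0 (median 1.12, 1 passing). Of all genes, 1.27% were called there, 18.1% had such an unadjusted p and 49.9% were above 0. Summed keratinocyte markers at 1, 8 and 16 h ran from 497 to 20665 on day 1 and from 458 to 9790.0 on day 14, and carcinoma epithelium markers from 27863 to 39508 and from 19826 to 47374. Fibroblast markers ran from 184993 to 779180 and from 77644 to 538544. All markers of these lists passed the filter. Their part in the fall of Prep was not tested.

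**Figure D5:**
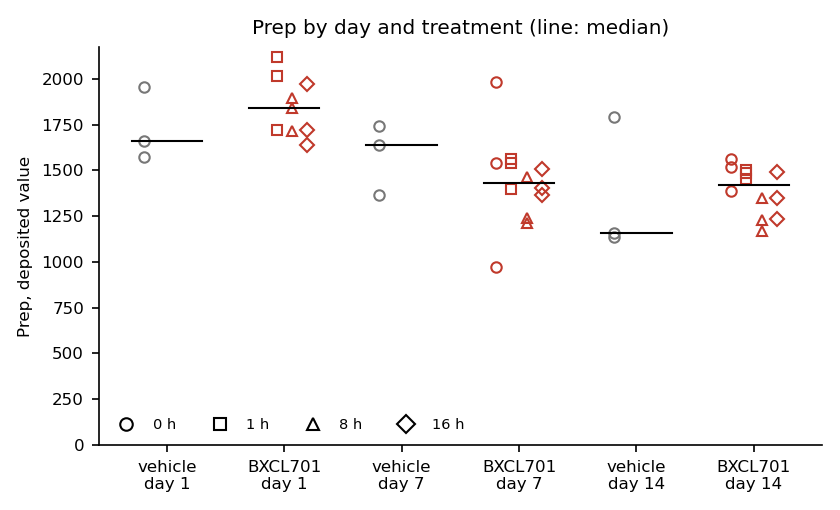
Deposited Prep value of every tumour by day and treatment, with the hour as the symbol and a line at the median. The 12 treated day 14 tumours lie at 1167 to 1562, below the 9 treated day 1 tumours at 1638 to 2117, while the day 14 vehicle tumours lie at 1136, 1160.2 and 1789.8.

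The other members passed no comparison between days or hours (limma). Those under an unadjusted p of 0.05 were Dpp7 at 8 h, given above, Fap at 16 h and Dpp4 in vehicle. In these comparisons 9.16%, 6.65% and 15.8% of all genes had such an unadjusted p. Over all genes, 0.012% were called between 1 h and 0 h, 0.00602% between 16 h and 0 h, 0.337% between 8 h and 1 h and 0.229% between 16 h and 8 h, and 0% between vehicle days 1 and 7. For Fap, the 16 h minus 1 h difference over days 1, 7 and 14 was -0.91 ± 0.43 (SE, limma adjusted p = 0.748), where 0.114% of all genes were called. Its day 7 minus day 1 difference under BXCL701 was -0.83 ± 0.43 (SE, adjusted p = 0.332). Dpp4 in vehicle differed by -0.98 ± 0.47 from day 7 to day 14 (SE, limma adjusted p = 0.301), where 0% were called.

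Genes tied to the enzymes by function were examined by list. Of 13 DPP4 substrates, 7 passed the filter, all chemokines. The peptide genes Gcg, Gip, Vip, Npy, Pyy and Ghrh did not, with highest values from 0.985 to 9.99. On day 14, 1 of the 7 rose and 0 fell, and all 7 estimates were above 0 (median 1.14, 5 at an unadjusted p under 0.05). Of all genes, 3.29% were called on that day, 17.8% had an unadjusted p under 0.05 and 48.4% were above 0. The gene that rose was Cxcl9, a chemokine for T and NK cells that DPP4 can truncate. It stood at 344, 1063 and 2297 in vehicle and at 1101 to 8254 (median 4029) under BXCL701, a log2 difference of 1.91 ± 0.48 (SE, limma adjusted p = 0.0238). Cxcl11 (1.68 ± 0.49, adjusted p = 0.0523) and Cxcl10 (0.93 ± 0.38, adjusted p = 0.171) did not pass, and Cxcl12 was at 0.38 ± 0.70 (SE, limma). On days 1 and 7 and at 0 h, 0 of 7 passed (0, 2 and 4 at an unadjusted p under 0.05), where 0%, 0.00602% and 0.512% of all genes were called and 2.63%, 9.87% and 10.8% had such an unadjusted p.

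Of 7 genes of the NLRP1 pathway that DPP8 and DPP9 restrain, 1 rose and 1 fell on day 14 (5 at an unadjusted p under 0.05), where 3.29% of all genes were called and 17.8% had such an unadjusted p. Nlrp1a, a sensor of the pathway, stood at 7.44, 15.1 and 17.8 in vehicle and at 20.9 to 45.6 under BXCL701, so the arms did not overlap (log2 difference 1.22 ± 0.28 SE, limma adjusted p = 0.0164). Il18, a cytokine that caspase-1 matures, stood at 256 to 405 in vehicle and at 161 to 256 under BXCL701, where the highest treated tumour (256.4) lay just above the lowest vehicle tumour (255.8). Its log2 difference was -0.78 ± 0.17 (SE, limma adjusted p = 0.0124). Nlrp1b (0.82 ± 0.31, adjusted p = 0.146), Casp1 (0.62 ± 0.22, adjusted p = 0.113) and the pore-forming Gsdmd (0.04 ± 0.19, adjusted p = 0.949) did not pass. On days 1 and 7 and at 0 h, 0 of 7 passed (0, 2 and 4 unadjusted), against 0%, 0.00602% and 0.512% of all genes called and 2.63%, 9.87% and 10.8% unadjusted.

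Without day 14 vehicle replicate 2, the differences of Cxcl9, Nlrp1a and Il18 were 1.18, 0.87 and -0.64 (limma adjusted p 0.696, 0.536 and 0.427), and without replicate 1 Cxcl9 (1.99, adjusted p = 0.0719) and Il18 (-0.73, adjusted p = 0.0680) also missed the threshold. Both tumours had low sums of immune markers: T cell markers summed to 281 and 413 in them against 1029 in replicate 3. The part of immune cell content in these genes was not tested.

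FAP substrates and partners (6 of 7 passed the filter, Serpinf2 did not) had 0 calls on day 14, 1 of 6 estimates above 0 and a median of -0.21 (0 unadjusted). For this list and the next 2, the shares of all genes on day 14 were 3.29% called, 17.8% unadjusted and 48.4% above 0. Plaur, which encodes the urokinase receptor and pairs with FAP, was the nearest to a call (-0.38 ± 0.19, limma adjusted p = 0.302). The 3 collagen chains of this list also stand in the fibroblast list. DPP4 binding partners had 0 of 6 calls (2 unadjusted), and Ptprc, which encodes the leukocyte phosphatase CD45, was at 0.66 ± 0.31 (SE, limma adjusted p = 0.255). The 10 genes listed as related peptidases, which include the inactive Dpp6 and Dpp10, had 0 calls on day 14 (0 unadjusted) and a median of 0.13. Among them Prcp, a lysosomal relative of Dpp7, was at -0.15 ± 0.10, Prepl, a relative of Prep, at 0.23 ± 0.21, and Dpp3 at -0.15 ± 0.16 (SE, limma adjusted p 0.493, 0.636 and 0.700).

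The genes whose values ran most like each member over the 42 tumours were taken from 14563 named genes by Pearson correlation. For Dpp4 they were Slc28a2 (0.84), Chrdl1 (0.83) and Chp2 (0.82). For Fap they were Gfpt2 (0.95), Galnt16 (0.94) and Adgrd1 (0.94), and Gfpt2 and Galnt16 kept the top 2 ranks within groups. For Dpp8 they were Nr2c2 (0.97), Golga4 (0.96) and Crkl (0.96), as close as the transcript-length index itself. For Dpp9 they were Smg8 (0.83), Rab11fip3 (0.82) and Ttc17 (0.79), for Dpp7 Rnf167 (0.86), Mib2 (0.84) and the lysosomal protease Ctsd (0.82), and for Prep Vwa9 (0.83), Dnajb12 (0.80) and Lmnb2 (0.79). All points share libraries and scaling. Between members, the strongest correlations were Dpp7 with Dpp8 (-0.61), Dpp9 with Prep (0.52) and Dpp4 with Fap (0.51). Dpp8 and Dpp9, the pair closest in sequence, correlated at 0.15.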

How the data were processed

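RNA of 42 tumours was sequenced, 3 in each of 14 groups. The submitters' processing notes name GRCm38 as the build, Bowtie 0.12.9 and Trimmomatic 0.36. How reads were quantified and scaled, and with which annotation, was not given in the sources used here. Gene values as deposited by the authors are a signal: scaled read estimates per gene, of which 0.081% of the values above 0 were whole numbers, so a count test was not used and the read depth is unknown. Log2 FPKM values, also deposited by the authors, were used for levels per length and as an alternative.

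The filter on low values kept a gene that reached 10 in 3 or more tumours. One limma 3.58.1 model (R 4.3.3, data.table package, version 1.17.8) of log2(value + 1) with a mean for each group was fitted to all 42 tumours (28 residual degrees of freedom, trended and robust moderation), so fold changes are on that scale and understate changes of low genes. Each comparison was adjusted by Benjamini-Hochberg over 16613 genes, at 0.05, and harvest hours had equal weight. Intervals are 95%. Means, ranges, correlations and figures were computed in Python 3.11.15 with pandas 2.3.3, numpy 2.4.6 and matplotlib 3.10.9. The procedure was tested on simulated data. Replicates are separate mice. Groups follow the labels, and 0 columns belonged to no listed sample.

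The members, lists and rules were chosen with earlier results of these data known. Besides the members, the text names for each the 3 genes of highest correlation, the genes of each list past the threshold in the comparisons with vehicle or else those of smallest p, and fixed genes of the pathways. The values of 1 listed gene are not reported here. Casp1 and Il1b between days and hours were named after their values were seen. Gene positions come from GENCODE M21, in which 47310 of 47729 identifiers were found. Alternatives were median-of-ratios factors (0.919 to 1.10), no filter, pseudocounts of 5 and 0.5, the log2 FPKM table, tissue covariates, the transcript-length index, plain moderation, only the tumours of a comparison, and leaving out each tumour. The index used genes whose mean was 100 or more.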

Additional observations from a re-analysis of the deposited data

How the results depend on the processing

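No paired analysis was possible because the labels number no replicates, so the numbers used only name tumours and link no mice across groups. Over 6324 values of the members under all alternatives, 6314 stayed on their side of the threshold. The estimate changed sign in 169, all of them values that passed in neither setting. Prep from day 1 to day 14 under BXCL701 was -0.34 with tissue covariates (0 members then passed) and ran from -0.47 to -0.41 when single tumours were left out, with 0 or 1 member passing. With the transcript-length index, Prep from day 1 to day 7 was -0.42 (adjusted p = 0.0202) and Dpp7 on day 14 was 0.35, so 1 member passed in each. Leaving out single tumours moved Prep from day 1 to day 7 between -0.42 and -0.36, Dpp4 on day 14 between 0.54 and 1.36, and Prep in vehicle from day 1 to day 14 between -0.58 and -0.26, each with 0 to 1 member passing. The F value of Prep ran from 2.17 to 4.06 when single tumours were left out, and it was 3.63 (adjusted p = 0.0382) without day 14 vehicle replicate 3. The cause of these changes was not tested.

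Over all genes, the day 14 count of 547 ran from 1, with only the tumours of that comparison or without day 14 vehicle replicate 2, to 2967 with the length index. It was 217 without replicate 1 and 2021 without replicate 3. The 0 h count of 85 ran from 1 to 807, the day 7 count of 1 from 0 to 11 and the day 1 count of 0 to 2. With only the tumours of the comparison, Cxcl9, Nlrp1a and Il18 on day 14 kept their estimates and had adjusted p-values of 0.150, 0.144 and 0.0855. By value per kilobase of exon, Dpp7 ranked 2 and Prep 3 instead of 3 and 2. From deviations within groups, 1 of the 3 most similar genes stayed among the top 3 for Dpp4, Dpp8 and Dpp9, 2 for Fap and 0 for Dpp7 and Prep. Depth is unknown, which limits precision most for Dpp4 and Fap, the members with the lowest values.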

Other observations

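Of the NLRP1 pathway genes, Casp1, which encodes caspase-1, rose between days under BXCL701, by 0.85 ± 0.16 on the log2 scale from day 1 to day 7 (SE, limma adjusted p = 0.0191) and by 0.78 ± 0.16 from day 1 to day 14 (adjusted p = 0.0144), with the day 1 tumours shared. Treated tumours held 557 to 1463 on day 1 (median 815), 952 to 2346 on day 7 (median 1379) and 1032 to 1858 on day 14 (median 1449). Vehicle medians were 902, 1109 and 935. Casp1 passed against vehicle on no day. For a difference between days in the BXCL701 effect, 0% of all genes were called, Casp1 included. Il1b, another caspase-1 substrate, was higher at 16 h than at 1 h by 1.10 ± 0.22 (SE, limma adjusted p = 0.0264) over days 1, 7 and 14. Of all genes, 0.12%, 1.27% and 0.114% were called in these comparisons, in the order given. The calls of Casp1 and Il1b were lost in 6, 1 and 13 of 50 alternatives. Both genes were named here after their values were seen.

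Of the 10 genes listed as related peptidases, not all of them proline-directed or active, 4 had medians above that of Dpp9, the most abundant member. Xpnpep1, the cytosolic aminopeptidase P, had a median of 63.8 FPKM (range 49.0 to 75.7), Dpp3 42.7 (31.1 to 62.7) and Pepd, the prolidase that splits proline dipeptides, 32.1 (24.3 to 52.3). Apeh, an acylpeptide hydrolase, was at 31.0 (20.5 to 45.0). The medians of Prcp, Prepl, Xpnpep3 and Xpnpep2 were lower, at 22.1, 10.3, 3.85 and 0.281 FPKM. The catalytically inactive relatives of Dpp4 in this list were near 0, Dpp6 at a median of 0.275 FPKM and Dpp10 at 0.0535.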
